A study of Mus musculus with 8 samples.

Results

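The pentose phosphate pathway was followed through the 8 genes of its core enzymes, G6pdx, Pgls, Pgd, H6pd, Rpe, Rpia, Tkt and Taldo1, chosen by gene symbol out of the 46983 measured by RNA-Seq in the hippocampus of mice that overexpress Xbp1s and of their controls. XBP1s-TG mice carried TRE-XBP1s together with Camk2a-tTA, a Tet-off pair in which the Camk2a promoter drives the transactivator in forebrain excitatory neurons and doxycycline (Dox) holds the Xbp1s transgene silent. The transgene sits in an intron of Gpc6 on chromosome 14, which also carries Tkt. The genotype of the control mice is given only as Control. All mice were C57BL/6 and 2 months old, and the hippocampus was taken 7 days after Dox was withdrawn from the drinking water. Each group had 4 libraries, called S1 to S4 for XBP1s-TG and S5 to S8 for Control. The labels number them as replicates and do not name the animals, while the paper calls the samples independent. The p-values weigh the difference between groups against the spread between these libraries.

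The pathway starts from glucose 6-phosphate, the point where it leaves glycolysis. Its oxidative arm runs irreversibly through glucose 6-phosphate dehydrogenase (G6pdx), 6-phosphogluconolactonase (Pgls) and 6-phosphogluconate dehydrogenase (Pgd), and its dehydrogenase steps make NADPH, the reductant that brain cells use for glutathione recycling and lipid synthesis. The non-oxidative arm is reversible: the epimerase Rpe, the isomerase Rpia, the transketolase Tkt and the transaldolase Taldo1 exchange sugar phosphates between ribose 5-phosphate, a precursor of nucleotides, and intermediates of glycolysis. H6pd encodes a separate bifunctional dehydrogenase and lactonase in the lumen of the ER, where its NADPH serves the steroid reductase Hsd11b1. XBP1s, the transcription factor made from spliced Xbp1 mRNA, acts on many genes of the ER.

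Xbp1 itself was at 786, 549, 1094 and 729 TPM (a measure of transcript abundance scaled by exon length and library) in S1, S2, S3 and S4, against 68.9 to 71.9 TPM in the 4 Control libraries. Between 35259270 and 41833735 reads (or read pairs) were assigned to genes in XBP1s-TG and between 34877920 and 52140639 in Control. S1 and S3 stood apart from the other libraries by their choroid plexus genes, whose 7 markers summed to 82.2 and 179 TPM there, against 5118 and 9099 TPM in S2 and S4 and 4007 to 8888 TPM in Control. Summed excitatory neuron markers were 4363 to 5087 TPM in XBP1s-TG and 5561 to 6322 TPM in Control, and 1 of the 4 fell. Of the 3 dentate granule markers 2 fell, with sums of 58.1 to 111 TPM in XBP1s-TG and 98.4 to 133 TPM in Control. The part of these markers in the results on the enzymes was not tested. The 5 microglia markers summed to 143 to 161 TPM in XBP1s-TG and 163 to 180 TPM in Control. The groups did not overlap in these sums or in those of the excitatory neuron markers. How common such separation downwards is among all genes was not counted. None of the tested markers of interneurons, astrocytes, oligodendrocytes, microglia, endothelium or choroid plexus passed the test. In whole hippocampus, fewer cells of a type and less RNA per cell cannot be told apart.

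The 250 bases before each RefSeq start were read for all 8 genes (RefSeq, GRCm38.p6), since several members are known as targets of NRF2, a factor that binds the antioxidant response element. Its core, TGACNNNGC on either strand, was found in the window of G6pdx and in no other member's, and in 10.2% of all 32851 promoter windows of this length. The windows of G6pdx, H6pd and Tkt, and a window of Pgd, lie wholly within the gene regions given below, because their RefSeq starts are internal to these. The stretch of G6pdx that holds the core is shown as the 1 match among the members. It is written 5′ to 3′ on the strand of the gene, with the reverse complement of the core in capitals.
G6pdx, chrX:74428919-74428948, minus strand, 68 to 39 bases before the start: gaggcgggtcaGCTCAGTCAaagcacacgc
The CCAAT box was found in the other window of Pgd, which rose, in the window of H6pd and in that of Taldo1, which did not rise. It was found in 33.9% of all windows. The letters of 3 elements linked to the unfolded protein response, searched on both strands, were in no member's window: the UPRE TGACGTGG (0.56% of all windows), the ERSE, which is CCAAT and CCACG with 9 bases between them (0.11%), and the ERSE-II, which is ATTGG and CCACG with 1 base between them (0.03%). Nor did any member's window hold ACGT, the core that the UPRE and the CRE-like TGACGT share, which is found in 26.9% of all windows (TGACGT in 6.47%). A match is a string of letters and not a binding site, and its absence from these windows says nothing of the factor.

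Among the members, the 2 NADPH-producing dehydrogenases of the cytosol rose, and no other member passed the test. Here a gene passed when its limma adjusted p was under 0.05 and its fold change at least 1.5, over 9270 genes with at least 1 library above 14 TPM on the normalized scale. Of the 8 members 6 were tested, of which 2 rose and 0 fell, while 8.36% of all genes tested passed, 5.61% upwards and 2.75% downwards. H6pd and Rpia lay under the limit and were compared on their own by an exact permutation test. Pgls entered through 1 library only, S8.

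G6pdx (ENSMUSG00000031400, GRCm38 chrX:74409483-74429194, minus strand), the first and rate-limiting enzyme of the oxidative arm, was at 62.4, 48.5, 69.0 and 54.5 TPM in S1 to S4, against 24.9, 27.4, 27.9 and 23.3 TPM in S5 to S8. The groups stood well apart, S2, the lowest of S1 to S4, being still far above S7, the highest of S5 to S8. Such separation upwards was seen for 34.1% of all genes tested. The means were 58.6 ± 8.97 TPM in XBP1s-TG and 25.9 ± 2.19 TPM in Control (SD, n = 4 each), a 2.26-fold ratio. In limma the log2 fold change was 0.996 (SE 0.0865, 95% confidence interval 0.80 to 1.19, adjusted p = 2.23e-05). The values rested on 8611 reads in XBP1s-TG and 4115 in Control. Without S1 and S3 the log2 fold change was 0.84 (limma adjusted p = 8.95e-05). G6pdx lies on the X chromosome, and Xist was high in S3, S4, S7 and S8 and near 0 in the others, 2 libraries of each kind in each group. With this pattern as a covariate the log2 fold change of G6pdx was 0.996 (limma adjusted p = 5.80e-05). Since each group had 2 libraries of each kind, this covariate could change the p-value but not the fold change.

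Pgd (ENSMUSG00000028961, chr4:149149991-149166771, minus strand), the enzyme that makes ribulose 5-phosphate and the second NADPH-yielding step of the arm, had 33.4, 28.5, 33.5 and 29.2 TPM in S1 to S4, against 15.6, 15.7, 14.6 and 13.8 TPM in S5 to S8. The groups did not overlap, and the spread within each was small beside the gap. Pgd averaged 31.1 ± 2.65 TPM in XBP1s-TG and 14.95 ± 0.926 TPM in Control (SD, n = 4 each), a 2.08-fold ratio. Its log2 fold change was 0.86 (SE 0.0573, 95% confidence interval 0.74 to 0.99, limma adjusted p = 5.45e-06), from 9593 reads in XBP1s-TG and 5024 in Control. Without S1 and S3 it was 0.77 (limma adjusted p = 0.000101).

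Pgls (ENSMUSG00000031807, chr8:71592176-71601092, plus strand), the lactonase that sits between these dehydrogenases, did not follow them. It was at 12.9, 13.2, 12.2 and 12.04 TPM in S1 to S4 and at 12.2, 13.0, 13.8 and 13.9 TPM in S5 to S8. The groups overlapped, with means of 12.6 ± 0.537 TPM in XBP1s-TG and 13.2 ± 0.803 TPM in Control (SD, n = 4 each). The log2 fold change was -0.14 (95% confidence interval -0.31 to 0.04, limma adjusted p = 0.163), an interval that does not reach a 1.5-fold difference either way. G6pdx therefore stood at 3.69 to 5.65 times the TPM of Pgls in the XBP1s-TG libraries, against 1.67 to 2.11 times in Control.

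**Figure D1:**
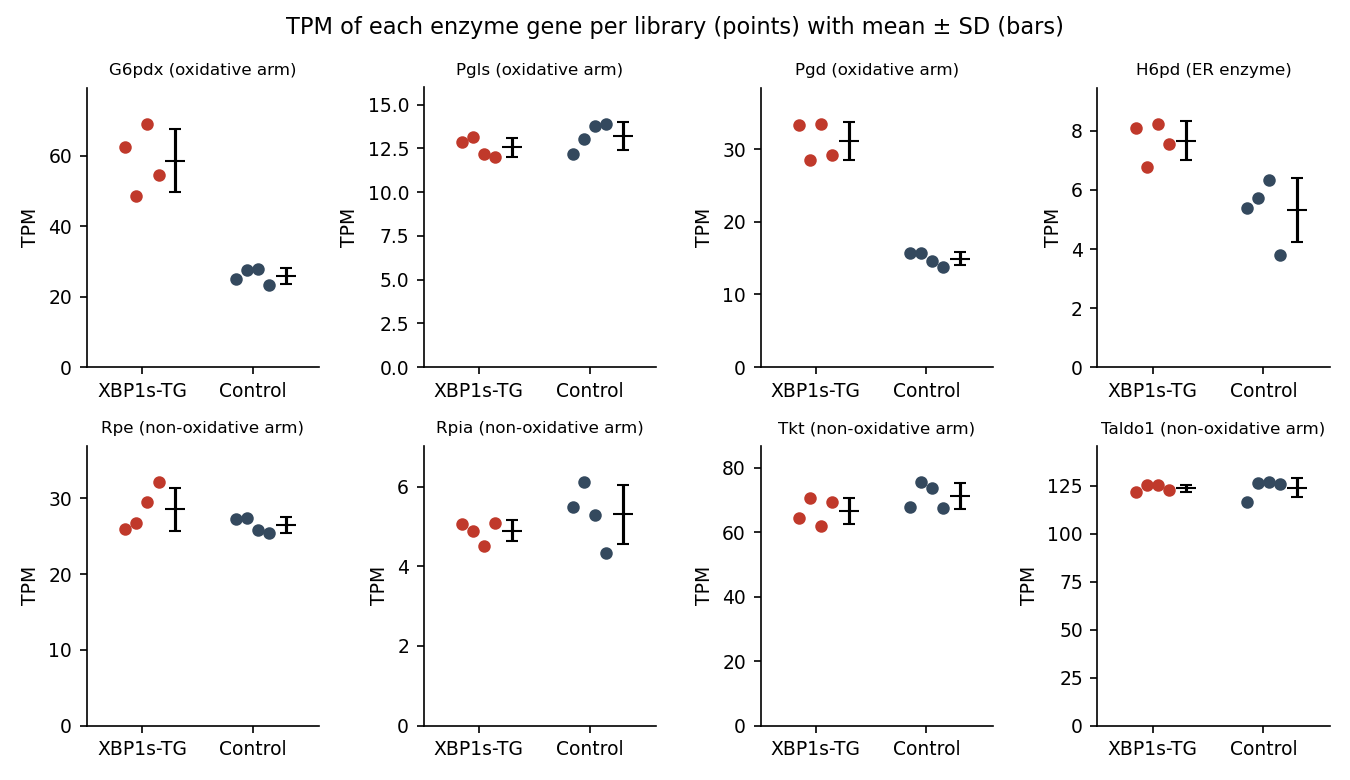
TPM of the 8 enzyme genes in each library (y axis, from 0, own scale per gene), XBP1s-TG left and Control right, with mean ± SD beside the points (n = 4 each). The groups stand apart for G6pdx (48.5 to 69.0 against 23.3 to 27.9 TPM), Pgd and H6pd, and overlap for the other 5 genes.

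H6pd (ENSMUSG00000028980, chr4:149979475-150009023, minus strand), the ER counterpart of G6pdx and Pgls, was expressed at a far lower level. It had 8.10, 6.77, 8.23 and 7.57 TPM in S1 to S4, against 5.39, 5.74, 6.33 and 3.78 TPM in S5 to S8. The groups did not overlap, although the lowest XBP1s-TG library, S2, was close to the highest Control library, S7. The means were 7.67 ± 0.665 TPM in XBP1s-TG and 5.31 ± 1.09 TPM in Control (SD, n = 4 each), a 1.44-fold ratio. The difference in mean log2(TPM + 2) was 0.41, with an exact two-sided permutation p = 0.0286, unadjusted and the smallest that 4 libraries against 4 can give. Among the 2659 genes under the limit with a library of at least 6 TPM, 21.6% were likewise higher in every XBP1s-TG library than in any Control library, so this separation was common at such levels.

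The permutation p of H6pd moved with single libraries, while its groups stayed apart whichever library was left out. With any of S1, S2, S3, S4 or S8 left out, the exact permutation p was 0.0571, where 3 libraries against 4 can reach 0.0286. The difference was 0.31 to 0.48 over all 8 omissions, lowest without S8. Without both S1 and S3 it was 0.34 (exact permutation p = 0.2, where 2 libraries against 4 can reach 0.0667). Recovered reads gave 440 to 525 for H6pd in XBP1s-TG libraries and 242 to 467 in Control libraries. With no filter on low values, limma gave H6pd a log2 fold change of 0.36 (adjusted p = 0.0356), short of 1.5-fold. A limma voom fit to the reads of 16397 genes with at least 100 reads, chosen after seeing the data, gave H6pd a log2 fold change of 0.48 (SE 0.117, adjusted p = 0.00852), short of 1.5-fold. In that fit 19.6% of genes were higher at an adjusted p under 0.05, and G6pdx and Pgd had log2 fold changes of 1.11 and 0.99. The ratio of G6pdx to H6pd in TPM was 7.16 to 8.38 in XBP1s-TG and 4.41 to 6.15 in Control.

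None of the 4 genes of the non-oxidative arm passed. Of the 3 tested in limma, Tkt and Taldo1 had an unadjusted p under 0.05, both lower, and in voom on recovered reads 0 passed. Over all genes tested, 26.5% were higher and 33.3% lower at an unadjusted p under 0.05, and in that voom fit 6.85% rose and 3.07% fell, so that such counts are common in these data. Tkt (ENSMUSG00000021957, chr14:30548359-30574722, plus strand), the thiamine-dependent transketolase, was at 64.5, 70.6, 61.9 and 69.2 TPM in S1 to S4, against 67.7, 75.4, 73.7 and 67.6 TPM in S5 to S8. The groups overlapped. Its log2 fold change was -0.21 (95% confidence interval -0.35 to -0.08), with a limma adjusted p of 0.0140 but far short of 1.5-fold. At an adjusted p under 0.05 alone 53.8% of all genes tested differed, 24.4% being higher and 29.4% lower. Over all genes tested the median was -0.04 on this scale and 0.07 without quantile normalization, a shift of -0.10, and without that normalization Tkt was at -0.09 (limma adjusted p = 0.204). Without S1 and S3 Tkt was at -0.12 (limma adjusted p = 0.124).

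Taldo1 (ENSMUSG00000025503, chr7:141392199-141402968, plus strand), the transaldolase, was the most abundant member in both groups. It had 122, 125, 125 and 123 TPM in S1 to S4, against 116, 127, 127 and 126 TPM in S5 to S8. Apart from S5, which was low, the Control values lay within 1 TPM of each other, and the groups overlapped. The log2 fold change was -0.11 (95% confidence interval -0.21 to -0.01, limma adjusted p = 0.0554). Without quantile normalization it was -0.0020 (limma adjusted p = 0.973).

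Rpe (ENSMUSG00000026005, chr1:66700831-66719805, plus strand), the epimerase that leads ribulose 5-phosphate to xylulose 5-phosphate, had 26.0, 26.7, 29.5 and 32.1 TPM in S1 to S4 and 27.3, 27.5, 25.8 and 25.5 TPM in S5 to S8. S3 and S4 were above all Control libraries and S1 and S2 were among them. The log2 fold change was -0.01 (95% confidence interval -0.16 to 0.13, limma adjusted p = 0.861), and its sign turned with the normalization. Rpia (ENSMUSG00000053604, chr6:70765720-70792232, minus strand), the isomerase that makes ribose 5-phosphate, was the lowest member in XBP1s-TG and level in mean with H6pd in Control, at 5.07, 4.88, 4.52 and 5.09 TPM in S1 to S4 and 5.49, 6.10, 5.28 and 4.32 TPM in S5 to S8. All XBP1s-TG values lay inside the Control range, and the difference in mean log2(TPM + 2) was -0.08 (exact permutation p = 0.371). Without S8, the lowest Control library, it was -0.15 (exact permutation p = 0.0286).

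**Figure D2:**
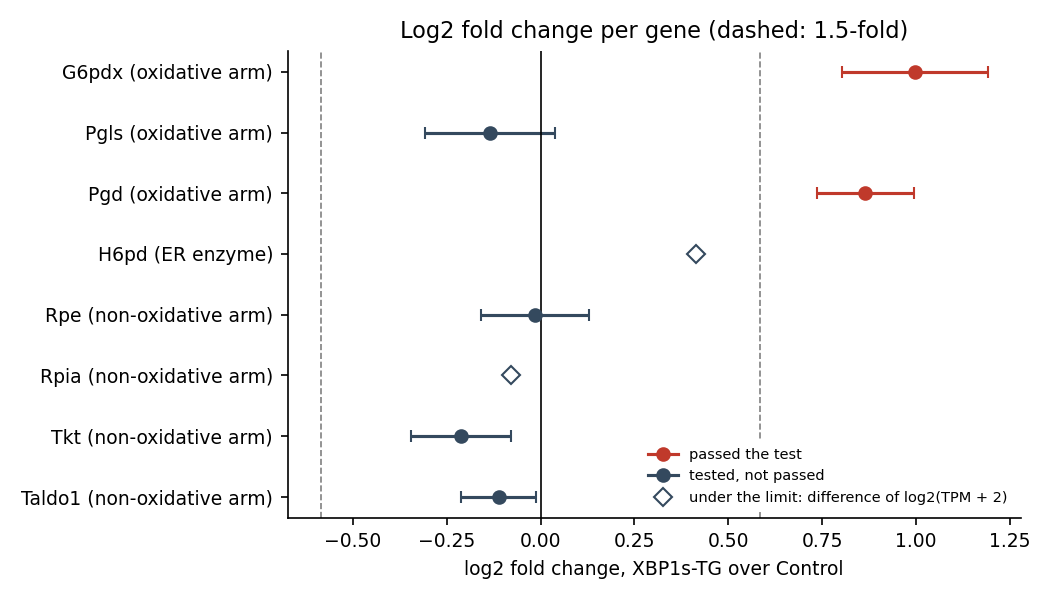
Log2 fold change of each enzyme gene, XBP1s-TG over Control (x axis), with 95% confidence intervals from limma, the dashed lines marking 1.5-fold. G6pdx (0.996) and Pgd (0.86) lie beyond the line and the 4 other tested genes between -0.21 and -0.01, while open diamonds show the difference in mean log2(TPM + 2) of H6pd (0.41) and Rpia (-0.08).

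Summed over genes, the oxidative arm stood at 109, 90.2, 115 and 95.7 TPM in S1 to S4, against 52.7, 56.2, 56.3 and 51.0 TPM in S5 to S8. The non-oxidative arm summed to 224 ± 5.55 TPM in XBP1s-TG and 227 ± 8.31 TPM in Control (SD, n = 4 each), with overlapping ranges. The oxidative arm thus took 31.3% ± 2.84 of the TPM of both arms in XBP1s-TG and 19.2% ± 0.469 in Control (SD, n = 4 each). These sums describe the same values as above and carry no test of their own.

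The order of levels by mean TPM in XBP1s-TG was Taldo1, Tkt, G6pdx, Pgd, Rpe, Pgls, H6pd and Rpia. Tkt and G6pdx had overlapping ranges, as did Pgd and Rpe. Within libraries, Tkt was above G6pdx except in S3, and Pgd above Rpe except in S4. Whether these neighbours differed was not tested. In Control the order was Taldo1, Tkt, Rpe, G6pdx, Pgd, Pgls, H6pd and Rpia, with overlapping ranges between Rpe and G6pdx, between Pgd and Pgls and between H6pd and Rpia. G6pdx thus ranked next below Tkt in XBP1s-TG and next below Rpe in Control.

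Within the XBP1s-TG group, the libraries with more Xbp1 also had more G6pdx. Relative to the Control mean, G6pdx was 2.67-fold in S3, 2.41-fold in S1, 2.11-fold in S4 and 1.87-fold in S2, the same order as Xbp1. H6pd stood in that order too, at 1.55-fold, 1.53-fold, 1.42-fold and 1.27-fold, and Pgd was at 2.24-fold, 2.23-fold, 1.95-fold and 1.91-fold. Tkt ran the other way, at 0.870-fold in S3, 0.906-fold in S1, 0.973-fold in S4 and 0.993-fold in S2. The other members followed neither order: Rpe was highest in S4 and lowest in S1, Rpia highest in S4 and lowest in S3, Pgls highest in S2 and lowest in S4, and Taldo1 highest in S2 and lowest in S1. Of all genes tested, 16.2% had the order of Xbp1 and 4.68% its reverse. With 4 libraries this is a description. S3 and S1 are also the libraries low in choroid plexus RNA, and the part of that difference in the order was not tested.

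**Figure D3:**
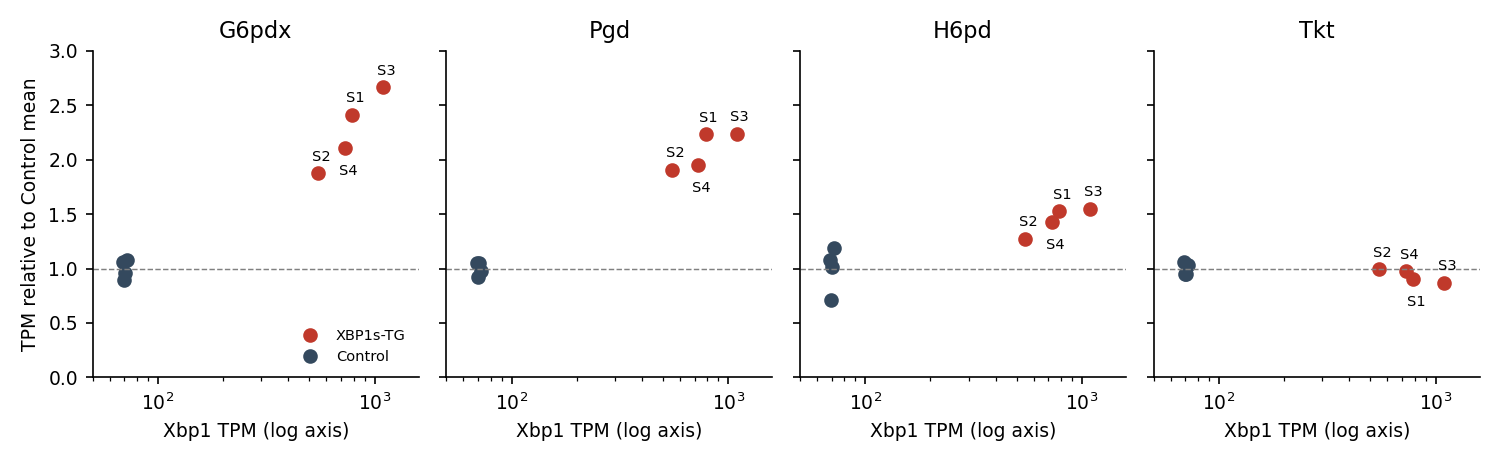
TPM of G6pdx, Pgd, H6pd and Tkt relative to the Control mean (y axis) against Xbp1 TPM of the same library (x axis, log scale), with XBP1s-TG libraries labelled S1 to S4. G6pdx runs between 1.87-fold in S2 and 2.67-fold in S3 along with Xbp1, and Tkt stays between 0.870-fold and 0.993-fold.

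Some member genes share sequence with others. The exons of G6pdx overlap those of Ikbkg on the opposite strand over 418 bases, and Ikbkg averaged 18.6 TPM in XBP1s-TG and 16.8 TPM in Control. Rpe overlaps Kansl1l on the opposite strand over 558 bases (5.23 TPM in XBP1s-TG and 6.99 TPM in Control), and Pgls overlaps Fam129c on its own strand over 776 bases (0.568 TPM in XBP1s-TG and 0.855 TPM in Control). The kit keeps the strand of the RNA, but whether the counting used it is not stated, so reads in these stretches are uncertain. G6pd2, an autosomal retrogene 93.2% identical to G6pdx over 2332 bases, did not exceed 0.0383 TPM in any library. Taldo1 has a copy, Gm17823, identical at 94.7% of 923 bases, which was not analysed here.

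The genes whose profile was nearest to that of G6pdx, by root mean square distance between log2 differences from the Control mean over the 8 libraries, were Adam15 (0.0415), Nomo1 (0.0497) and Zfp862-ps (0.0499). Adam15, which encodes a membrane metalloprotease, averaged 92.6 TPM in XBP1s-TG and 41.6 TPM in Control. Nomo1, which encodes an ER membrane protein, averaged 174 TPM in XBP1s-TG and 78.4 TPM in Control. For H6pd the nearest were Fbxo33 (0.0603), Pcyt1a (0.0645), the rate-limiting enzyme of phosphatidylcholine synthesis, and Ccdc117 (0.0653), with log2 fold changes of 0.34, 0.33 and 0.43. These are likenesses of the difference from Control, and the levels of the genes differ.

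Around ribose 5-phosphate and the entry points of the pathway, Prps2 and Pgm2l1 fell. Of 15 genes in the list of paralogs and branches of the pathway 7 were tested, of which 0 rose and 2 fell in limma (2 higher and 4 lower at an unadjusted p under 0.05, and 0 and 2 passing in voom on recovered reads), with a median log2 fold change of -0.17 against -0.04 over all genes. Over all genes tested, 5.61% rose and 2.75% fell in limma, and 6.85% and 3.07% in voom on recovered reads. At an unadjusted p under 0.05, 26.5% of them were higher and 33.3% lower. Of the phosphoribosyl pyrophosphate synthetases, which activate ribose 5-phosphate for nucleotide synthesis, Prps2 fell to 21.5 ± 5.41 TPM in XBP1s-TG, against 31.4 ± 2.16 TPM in Control (SD, n = 4 each), with a log2 fold change of -0.64 (limma adjusted p = 0.00389). Prps1, the more abundant synthetase, was at 157 ± 10.5 TPM in XBP1s-TG and 104 ± 3.91 TPM in Control (SD, n = 4 each), with a log2 fold change of 0.48 that did not reach 1.5-fold on the normalized scale (limma adjusted p = 9.91e-05). Pgm2l1, the glucose 1,6-bisphosphate synthase of brain, fell to 136 ± 19.4 TPM in XBP1s-TG, against 192 ± 12.02 TPM in Control (SD, n = 4 each), a log2 fold change of -0.59 (limma adjusted p = 0.00142). Idnk, a gluconokinase that feeds 6-phosphogluconate into the pathway, had a log2 fold change of -0.49 (limma adjusted p = 6.21e-05), short of 1.5-fold.

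Both calls downwards were near the limit. Without normalization beyond TPM the log2 fold change was -0.53 for Prps2 and -0.50 for Pgm2l1, and neither passed. Prps2 did not pass without S1 (-0.56) or S3 (-0.52), and Pgm2l1 did not pass without S3 (-0.49) or S5 (-0.55). Prps2 also did not pass in an unequal-variance test per gene, at the same fold (adjusted p = 0.0616), nor Pgm2l1 in voom on genes with at least 100 reads (-0.58). Without both S1 and S3 they were at -0.35 and -0.43. The transketolase-like genes Tktl1 and Tktl2 were below 1 TPM in every library.

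The list for hexose phosphate metabolism in the ER lumen, where H6pd meets its substrate, was led in adjusted p by G6pc3 and Slc37a3. Of 7 genes 4 were tested, and in limma 0 rose and 0 fell (2 higher at an unadjusted p under 0.05, 0 passing in voom on recovered reads, median log2 fold change 0.22, against -0.04 over all genes). Of all genes tested, 26.5% were higher at an unadjusted p under 0.05. G6pc3, the ubiquitous glucose 6-phosphatase, was at 80.4 ± 8.002 TPM in XBP1s-TG and 53.7 ± 2.18 TPM in Control (SD, n = 4 each), a log2 fold change of 0.44 (limma adjusted p = 0.000176). Slc37a3, of the sugar phosphate exchanger family, was at 47.9 ± 2.66 TPM in XBP1s-TG and 33.9 ± 1.40 TPM in Control (SD, n = 4 each), a log2 fold change of 0.35 (limma adjusted p = 0.000344). Whether Slc37a3 acts in the ER was not tested. The glucose 6-phosphate transporter Slc37a4 had a log2 fold change of 0.04 (limma adjusted p = 0.517) and Hsd11b1, which uses the NADPH of H6pd, 0.09 (limma adjusted p = 0.373).

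Of the other enzymes that make NADPH, none of those tested in limma passed. Of 14 genes in this list 9 were tested, with 0 up, 0 down, 2 higher and 3 lower at an unadjusted p under 0.05, and a median log2 fold change of -0.06, against -0.04 over all genes. Of all genes tested, 26.5% were higher and 33.3% lower at an unadjusted p under 0.05. Nnt, the mitochondrial transhydrogenase, was at 13.8 ± 2.15 TPM in XBP1s-TG and 8.49 ± 0.413 TPM in Control (SD, n = 4 each), a log2 fold change of 0.51 (limma adjusted p = 0.00279) that was short of 1.5-fold. In voom on recovered reads Nnt was the 1 gene of the list to pass, at 0.61 (adjusted p = 0.000676). Nnt had entered the tests through 1 XBP1s-TG library above the limit and 0 Control libraries. The cytosolic malic enzyme Me1 (-0.25), the folate enzyme Mthfd1 (-0.24) and the mitochondrial isocitrate dehydrogenase Idh2 (0.24) differed by less. Under the limit, Me3 averaged 6.59 TPM in XBP1s-TG and 9.04 TPM in Control, and Mthfd1l 6.56 and 9.20 TPM. Both were lower without overlap (exact permutation p = 0.0286 each), and the other genes of the list under the limit overlapped. Me3 and Mthfd1l were picked with their values known. Of the 4 reductases that spend NADPH on glutathione and thioredoxin 2 were tested, Gsr with a log2 fold change of -0.21 (limma adjusted p = 0.0126) and Txnrd1 with 0.01 (limma adjusted p = 0.840). The difference between G6pdx and Pgd and these other sources was not tested.

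Glycolysis, which shares glucose 6-phosphate with the pathway, had 18 of its 23 genes tested in limma, of which 1 rose and 0 fell (5 higher and 11 lower at an unadjusted p under 0.05, and 1 and 0 passing in voom on recovered reads). The median log2 fold change was -0.13, against -0.04 over all genes. The gene that rose was Pgam2, the muscle phosphoglycerate mutase, at 44.1 ± 8.24 TPM in XBP1s-TG and 19.7 ± 6.80 TPM in Control (SD, n = 4 each), a log2 fold change of 1.01 (limma adjusted p = 0.00384). By adjusted p, the list was led by Bpgm (0.36), Pgam1 (0.32), Ldha (-0.43) and Eno1 (-0.25), none of which reached 1.5-fold. At an adjusted p alone 5 genes were higher and 10 lower, and without normalization beyond TPM 5 higher and 7 lower. Over all genes tested in limma, 24.4% were higher and 29.4% lower at an adjusted p alone. At an unadjusted p under 0.05 these shares were 26.5% and 33.3%, and 5.61% rose and 2.75% fell.

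Of the hexokinases, which make glucose 6-phosphate, Hk2 lay under the limit. It averaged 9.63 ± 1.71 TPM in XBP1s-TG and 3.97 ± 0.405 TPM in Control (SD, n = 4 each, exact permutation p = 0.0286), without overlap. Hk1, the main hexokinase of brain, was at 142 ± 3.96 TPM in XBP1s-TG and 155 ± 4.53 TPM in Control (SD, n = 4 each), a log2 fold change of -0.23 (limma adjusted p = 0.00209). Pgam2, Hk1 and Hk2 were picked after their values were seen.

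Of the regulators of the branch point, Trp53 had the lowest adjusted p. Of 6 genes measured 4 were tested and none passed in limma or in voom on recovered reads, at a median log2 fold change of -0.0024. At an unadjusted p under 0.05, 1 was higher and 1 lower, and 1 had an adjusted p under 0.05. That gene, Trp53, which encodes the tumour suppressor p53, had a log2 fold change of 0.26 (limma adjusted p = 0.00254). Of all genes tested, 26.5% were higher and 33.3% lower at an unadjusted p under 0.05. Tigar, a fructose bisphosphatase that favours the pathway, had a log2 fold change of -0.13 (limma adjusted p = 0.0524), and the fructose 2,6-bisphosphate enzymes Pfkfb3 and Pfkfb2 had 0.09 and -0.09. Pfkfb2 had entered the tests through 2 Control libraries above the limit and 0 XBP1s-TG libraries.

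Targets and parts of the NRF2 pathway, whose core element lies in the G6pdx window shown above, were measured outside the pentose phosphate genes. Of 19 genes 15 were tested, of which 1 rose and 1 fell (8 higher and 3 lower at an unadjusted p under 0.05, and 8 and 1 at an adjusted p alone), with a median log2 fold change of 0.21, against -0.04 over all genes. Over all genes tested, 5.61% rose and 2.75% fell in limma. At an unadjusted p under 0.05, 26.5% of them were higher and 33.3% lower, and at an adjusted p alone 24.4% and 29.4%. Gstp1, a glutathione transferase, rose to 804 ± 73.2 TPM in XBP1s-TG, against 472 ± 24.9 TPM in Control (SD, n = 4 each), a log2 fold change of 0.70 (limma adjusted p = 1.81e-05). Srxn1, which repairs oxidized peroxiredoxins, had a log2 fold change of 0.57, Ugdh 0.56 and the ferritin light chain Ftl1 0.47, each short of 1.5-fold. Ugdh had entered through its XBP1s-TG libraries only. Srxn1 and Ugdh passed without normalization beyond TPM (0.69 and 0.64) and in voom on recovered reads (0.63 and 0.64), so that 3 genes rose there. Single libraries also decided these calls: Srxn1 passed without S4 (0.59) or S7 (0.59) and Ugdh without S2 (0.61).

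Gsta4, a transferase for lipid aldehydes picked with its values known, fell to 78.1 ± 14.9 TPM in XBP1s-TG, against 131 ± 6.34 TPM in Control (SD, n = 4 each), a log2 fold change of -0.85 (limma adjusted p = 0.000473). Nqo1 and Hmox1, classical targets that lay under the limit, had overlapping groups. Nqo1 averaged 9.08 ± 3.11 TPM in XBP1s-TG and 11.2 ± 1.58 TPM in Control, and Hmox1 averaged 5.80 ± 0.315 TPM in XBP1s-TG and 6.40 ± 0.461 TPM in Control (SD, n = 4 each). Nfe2l2, the gene of NRF2, was at -0.17 (limma adjusted p = 0.0520). It had entered the tests through 1 Control library above the limit and 0 XBP1s-TG libraries. Nfe2l2, Nqo1 and Hmox1 were also picked with their values known. Other genes of the list were higher, among them Prdx1 at 0.40 (limma adjusted p = 0.000189) and Gclc at 0.32 (limma adjusted p = 0.000483). Gclm was at 0.04 (limma adjusted p = 0.452). Prdx1, Gclc and Gclm were likewise picked with their values known.

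**Figure D4:**
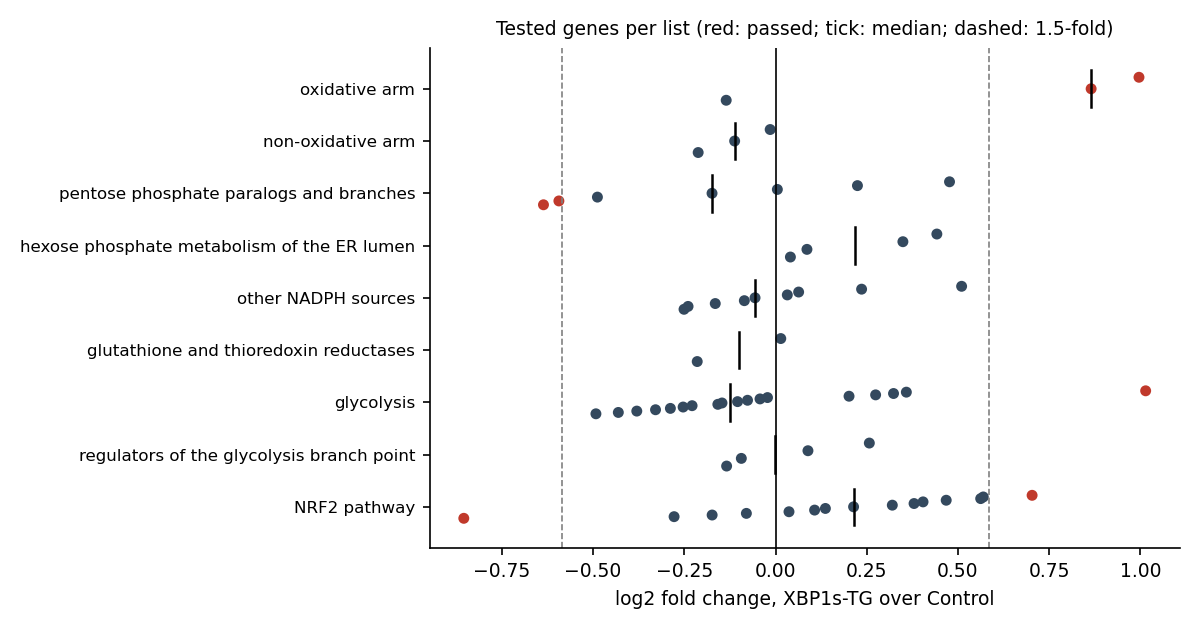
Log2 fold change, XBP1s-TG over Control (x axis), of every tested gene in each list, 1 point per gene, with genes that passed in red, list medians as ticks and 1.5-fold as dashed lines. The oxidative arm holds G6pdx (0.996) and Pgd (0.86), while the other NADPH sources and the non-oxidative arm have no gene past 1.5-fold.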

How the data were processed

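The authors made RNA-Seq libraries from 4 XBP1s-TG and 4 control samples of hippocampus, called independent in the paper. A stranded mRNA kit was used, starting from 500 ng of RNA. Per the study's methods, reads were trimmed with Trimmomatic, mapped to GRCm38 and counted per gene of annotation release 83 with CLCbio Genomics Workbench. The deposited TPM values, normalized by the authors for exon length and library, sum to 1000000 per library. The deposited fold change and unadjusted p-value columns hold the authors' own comparison and were not used. Groups of S1 to S8 are those deposited with the table.

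Values were taken as log2(TPM + 2) and quantile normalized across libraries (limma 3.58.1, R 4.3.3). Genes with a library above 4 (14 TPM) entered a limma fit (lmFit, then eBayes with trend) and p-values were adjusted by Benjamini-Hochberg. limma took the place of the unequal-variance test of the study because of the group size. H6pd, Rpia and other genes under the limit were compared by a two-sided exact permutation test. Whole reads were recovered for 29237 of 29237 genes above 0 TPM (tolerance 0.001). The fit was tested on simulated data.

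Named genes were the 8 members, Xbp1, in each list the 4 tested genes lowest in adjusted p, and the 3 nearest profiles to G6pdx and to H6pd. Members and lists were chosen with earlier results of these data known. Gene overlaps are from GENCODE M21 on GRCm38, copies were sought with blastn 2.17.0 (at least 90% identity over 200 bases), and promoter windows are RefSeq's, matched for 8 of 8 members. A few items are not reported here. The alternatives were other pseudocounts (1 and 0.1), filters, scalings, variance models and tests, voom on recovered reads (scaled by the median ratio to the mean library), Xist as a covariate, the adjusted p alone, and libraries left out. Quantile normalized values for genes under the limit, and voom on all genes with 100 reads, were added after seeing the data.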

Additional observations from a re-analysis of the deposited data

Results flagged for a closer look

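Taldo1 in Control was the 1 of 16 member and group combinations in which a library lay far from the rest. S5 had 116.48 TPM, and the gap to the next Control library took 0.943 of the range of the group, more than the 95% limit of Dixon's test allows for 4 samples. Chance gives such a gap in about 1 in 20 groups. S5 was also the library with the most reads, at 52140639 assigned to genes, and the part of its depth in this value was not tested.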

How the results depend on the processing

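G6pdx and Pgd passed under all 21 alternatives that keep the fold limit, with log2 fold changes of 0.84 to 1.11 and 0.77 to 0.99. Some of these left the estimate as it was and changed only the p-value. Leaving out each library in turn gave 0.92 to 1.07 for G6pdx, 0.31 to 0.48 for H6pd (exact permutation p 0.0286 to 0.0571), -0.070 to 0.027 for Rpe and -0.15 to -0.026 for Rpia. H6pd had a difference of 0 (exact permutation p = 1) with values below 4 raised to 4, since every library lies under that floor. Rpe changed sign without S1 (0.027), without S2 (0.0085), without normalization (0.097), with voom (0.020, and 0.035 on genes with 100 reads) and without S1 and S3 (0.034), never past an adjusted p of 0.05 in limma. Rpia passed the exact permutation test without S8 (-0.15, p = 0.0286). Tkt passed on the adjusted p alone (-0.21).

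Genes passing numbered 520 up and 255 down. They were 2260 and 2729 on the adjusted p alone, 1152 and 549 in voom on genes with 100 reads, 709 and 150 without normalization, and 407 and 152 without S1 and S3, with 455 to 594 up and 191 to 333 down on leaving out each library. Beyond the dropped fold limit, the genes added and the fewer libraries, the causes were not tested. Pgls gave no value where its level did not pass the filter. No paired analysis was possible because the columns carry no replicate numbers. H6pd and Rpia, at 242 to 525 reads a library, are the members with the least depth.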
